A study of Homo sapiens with 15 samples.

Results

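The 4 long noncoding RNAs described here, MALAT1, NEAT1, PCAT1 and DRAIC, were all higher in LNCaP cells given the androgen R1881 together with the androgen receptor inhibitor darolutamide than in LNCaP cells given R1881 alone. They were chosen by name, as RNAs of the nucleus or of prostate cancer, with earlier results of these data known. Of the 5 names, 4 were rows of the expression table of 17272 genes. The fifth, PCGEM1, was not analysed here, since no row of the table used carries its symbol or an older one.

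LNCaP is an established human prostate cancer cell line that grows in response to androgen. All cells were kept for 2 days in medium with charcoal-stripped serum, which is poor in steroids, and were then treated for 22 h. In 5 libraries the cells received 1 nM R1881, a synthetic androgen, and 2 µM darolutamide, and are called darolutamide libraries below. In the other 10 libraries they received 1 nM R1881 with DMSO, and are called R1881 libraries. Both groups therefore carried the androgen. No library without R1881 was analysed here, so the values hold no androgen-free level. Doses and group sizes follow the sample labels, while the methods of the study give a higher R1881 dose and the sizes of the groups the other way round. The source is 1 cell line. The study calls the replicates biological, and the labels do not say whether they were separate cultures, so the p-values below reflect only how far these libraries vary.

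MALAT1 and NEAT1 are among the most abundant noncoding RNAs of the nucleus. MALAT1 collects in nuclear speckles, the domains rich in splicing factors, and NEAT1 is the scaffold on which paraspeckles, another type of nuclear body, are built. PCAT1 and DRAIC are known from prostate cancer: PCAT1 lowers the repair protein BRCA2 after transcription, and DRAIC restrains the IKK kinase and through it NF-κB. Earlier work on prostate cancer cells described DRAIC as repressed by androgen and induced by FOXA1. PCGEM1 is an RNA largely restricted to the prostate.

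The libraries were made from RNA bound to poly-T beads, so the 3′ end of a transcript matters for what is captured. MALAT1 and the long NEAT1 RNA carry no ordinary poly(A) tail. RNase P cuts both ahead of a tRNA-like small RNA, and the end that is left folds into a triple helix in which a genome-encoded A-rich tract pairs with U-rich motifs. The short NEAT1 RNA ends at a conventional poly(A) signal and has a tail. The 3 ends are shown because poly-T beads bind A-rich sequence. They were read from the plus strand of GRCh38 with GENCODE version 44, at chr11:65506017-65506116 for MALAT1, chr11:65445441-65445540 for long NEAT1 and chr11:65426454-65426513 for short NEAT1. Capitals mark every stretch of 8 or more bases shared by the first pair, and the AATAAA signal in the third.
MALAT1 3′ end: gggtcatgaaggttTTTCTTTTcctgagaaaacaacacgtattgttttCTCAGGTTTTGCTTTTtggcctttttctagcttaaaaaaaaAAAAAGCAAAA
NEAT1 long 3′ end: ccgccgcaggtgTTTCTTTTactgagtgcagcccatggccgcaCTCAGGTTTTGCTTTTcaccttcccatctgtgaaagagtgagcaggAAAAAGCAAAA
NEAT1 short 3′ end: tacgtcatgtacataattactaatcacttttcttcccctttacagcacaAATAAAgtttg
The first pair of 100 bases shared 3 stretches in the same order, of 8, 16 and 11 bases. The first 2 hold the U-rich letters and the third is the A-rich end itself, and the small RNAs begin at the next base, 65506117 in MALAT1 and 65445541 in NEAT1. The AATAAA signal of short NEAT1 ends 5 bases before the annotated end. The longest unbroken run of A was 13 bases in MALAT1, 6 bases from its cut end, and 22 bases in NEAT1, at chr11:65440843-65440864 and 4676 bases from the end of the long RNA. The short NEAT1 RNA of 3418 bases lies wholly within the long one of 22743 bases, and the table has 1 row for both, so the isoforms cannot be told apart in these values.

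The 4 genes lie on the plus strand. RefSeq (GRCh38.p14) places NEAT1 at chr11:65422798-65445540 and MALAT1 at chr11:65497738-65506516, DRAIC at chr15:69561720-69571440 and PCAT1 at chr8:127013154-127021014. The annotation used for counting is not given in the sources used here. In GENCODE version 44 the span of PCAT1 is 862728 bases and overlaps PRNCR1, CASC8 and POU5F1B. Reads of PCAT1 are therefore uncertain where genes overlap, and it is not given whether counting used strand. DRAIC there spans 380200 bases, chr15:69462921-69843120, against 9721 bases in RefSeq. Its distances to other genes and its promoter below hold only for the RefSeq span.

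Between 15830745 and 25317567 reads per library lay behind the table, with 21870398 to 25317567 in darolutamide libraries and 15830745 to 24316740 in R1881 libraries. The 20 most abundant genes held 7.77 ± 0.287% of reads in darolutamide libraries and 6.59 ± 0.115% in R1881 libraries, and mitochondrial genes held 3.59 ± 0.296% in darolutamide libraries and 2.78 ± 0.124% in R1881 libraries (SD, n = 5 and 10). The part of these shifts in the results was not tested. FKBP5, a gene induced by the androgen receptor, averaged 152 CPM in darolutamide libraries and 1502 CPM in R1881 libraries, and all 4 androgen-response genes checked fell. Of 7 luminal prostate markers, 2 rose, among them FOLH1, 4 fell and HOXB13 did not pass the test. Of 8 markers of basal, stromal, immune, endothelial and neuroendocrine cells, the table used held 2, VIM and COL1A1, whose summed level was 44.3 to 58.7 CPM in darolutamide libraries and 26.0 to 31.8 CPM in R1881 libraries. Their part in the results was not tested, and KRT5, TP63, COL1A2, PTPRC, PECAM1 and CHGA had no row. Darolutamide replicate 4 stood apart from its group in several genes named below, and its effect is given beside the results. The labels number the libraries 86 to 90 for darolutamide and 71 to 75 and 51 to 55 for R1881, so treatment and any difference between these sets of numbers cannot be told apart. In RNA from whole cultures, fewer cells of a type and less RNA per cell cannot be told apart either.

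Values are CPM as the authors scaled them. Differences are log2 fold changes of darolutamide over R1881 on the log2(CPM + 0.5) scale, which understates the change of low genes. They were tested with limma over all 17272 genes, and a call is a Benjamini-Hochberg adjusted p under 0.05. All 4 measured RNAs were called higher, against 22.8% of all genes called higher, 23.7% called lower and 46.6% called in either direction. Since the 4 were chosen with earlier results of these data known, these shares give a background and are not a test of the 4. Of the 550 rows that match a GENCODE long noncoding RNA, 36.7% were called higher and 10.9% lower. The median change of the 4 was 0.43, beside 0.16 for those 550 rows and 0.00 for all genes (quartiles -0.18 and 0.19). In darolutamide libraries 2 of the 4, NEAT1 and DRAIC, lay above every R1881 library, as did 10.8% of all genes; 12.6% of all genes lay below every R1881 library, which makes 23.4% without overlap in either direction.

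**Figure D1:**
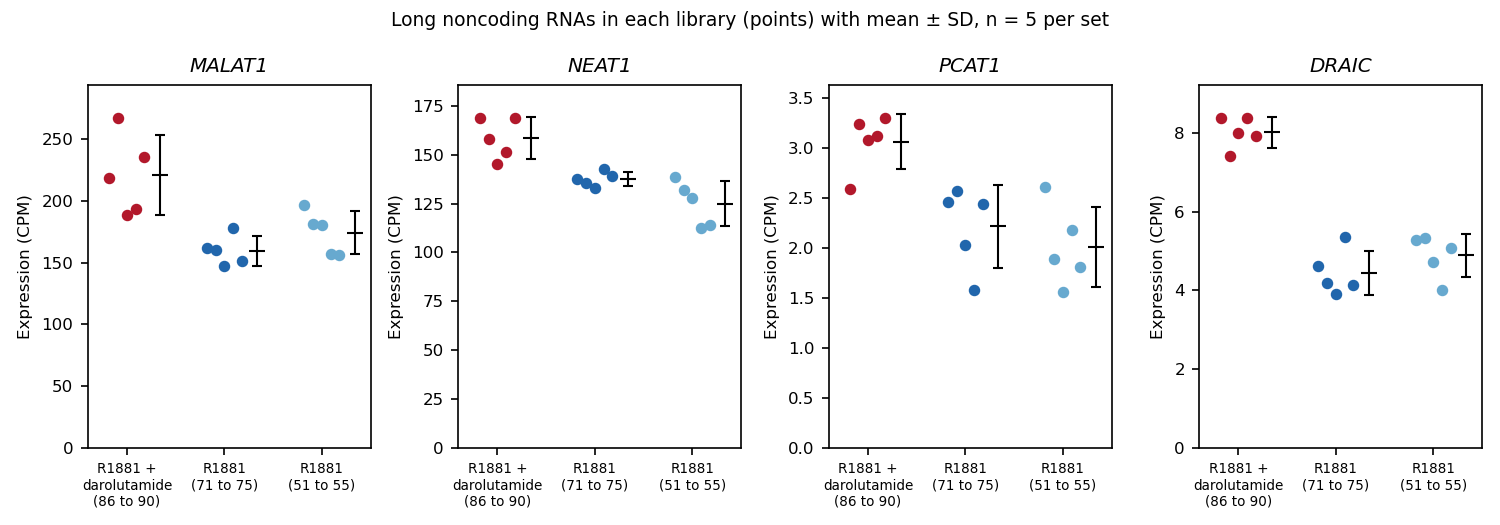
CPM (y axis, from 0) of MALAT1, NEAT1, PCAT1 and DRAIC in each library (points), with the mean ± SD of each set of 5 libraries in black. The darolutamide libraries stand left of the 2 sets of R1881 libraries: DRAIC lay at 7.42 CPM or more in every darolutamide library and at 5.35 CPM or less in every R1881 library, while the groups overlapped for MALAT1 and PCAT1.

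DRAIC had the largest difference of the 4. The darolutamide libraries held 7.42, 8.37, 7.92, 8.39 and 8.00 CPM of DRAIC (replicates 1 to 5). The R1881 libraries ran from 3.92 CPM at the lowest through a median of 4.67 to 5.35 CPM at the highest. The groups did not overlap, and the darolutamide libraries were close to each other, with an SD of 0.398 around a mean of 8.02 CPM, against 4.66 ± 0.572 CPM in R1881 libraries (n = 5 and 10). DRAIC rose by 0.73 ± 0.08 (SE) on the log2 scale (95% interval 0.56 to 0.90), a 1.66-fold change, with a limma adjusted p of 8.17e-07. Of all genes 3.40% had a larger log2 fold change, and of the long noncoding rows 6.73%. These values rest on 61 to 207 reads per library. Counting error alone gives a spread of 7.34% of the mean in darolutamide libraries, where 4.96% was seen, and of 10.3% in R1881 libraries, where 12.3% was seen.

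PCAT1 had the fewest reads of the 4. It stood at 3.23, 2.59, 3.30, 3.11 and 3.07 CPM in darolutamide replicates 1 to 5. In R1881 libraries it ran from 1.56 through a median of 2.10 to 2.60 CPM. Replicate 2 of the darolutamide group fell just short of the highest R1881 library, replicate 9, and the other 4 darolutamide libraries lay above all 10 R1881 libraries. The means were 3.06 ± 0.279 CPM with darolutamide and 2.11 ± 0.398 CPM with R1881 alone. PCAT1 rose by 0.46 ± 0.11 on the log2 scale (95% interval 0.23 to 0.69, limma adjusted p = 0.0021), and 8.99% of all genes had a larger log2 fold change. Between 25 and 81 reads per library lay behind these values. Counting error alone gives a spread of 11.9% of the mean in darolutamide libraries and 15.2% in R1881 libraries. The spread seen was 9.13% in darolutamide libraries and 18.9% in R1881 libraries.

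MALAT1, the speckle RNA, had the most reads of the 4. The darolutamide libraries held 268, 219, 236, 194 and 189 CPM, and the R1881 libraries 147 CPM at the lowest, 161 at the median and 197 at the highest. Darolutamide replicates 1, 2 and 3 lay above every R1881 library, whereas replicates 4 and 5 lay just below R1881 replicate 9. Its mean was 221 ± 32.3 CPM with darolutamide and 167 ± 16.1 CPM with R1881 alone, so the darolutamide libraries were also the more spread. MALAT1 rose by 0.40 ± 0.08 on the log2 scale (95% interval 0.23 to 0.56), a 1.32-fold change (limma adjusted p = 0.000514). Between 2237 and 6714 reads per library lay behind these values. At the mean reads of each group, counting error gives a spread of 1.39% in darolutamide libraries and 1.72% in R1881 libraries. The spread seen was 14.6% among darolutamide libraries and 9.63% among R1881 libraries.

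NEAT1, the paraspeckle scaffold, had the smallest difference. It measured 158, 169, 169, 151 and 145 CPM in darolutamide replicates 1 to 5. The lowest R1881 library had 112 CPM, the median 134 and the highest 143. The groups did not overlap, but the gap between them, from 145 CPM in the lowest darolutamide library to 143 CPM in the highest R1881 library, was narrow. The means were 159 ± 10.6 CPM with darolutamide and 131 ± 10.4 CPM with R1881 alone. NEAT1 rose by 0.27 ± 0.06 on the log2 scale (95% interval 0.15 to 0.39), a 1.21-fold change (limma adjusted p = 0.0008), from 2056 to 4180 reads per library. A larger log2 fold change was found for 17.6% of all genes and 34.9% of the long noncoding rows.

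Levels can be ordered between genes only per length. With the length of the GENCODE canonical transcript, MALAT1 stood at 21.2 CPM per kb in darolutamide libraries and 16.0 in R1881 libraries. That length of 10434 bases ends at 65508073, past the cut end at 65506116, so the level of MALAT1 per length also rests on the length assumed. Over the long RNA NEAT1 had 6.97 CPM per kb with darolutamide and 5.78 with R1881 alone, but over the short RNA 46.4 with darolutamide and 38.4 with R1881 alone, so its place below or above MALAT1 rests on the isoform assumed. DRAIC had 3.66 with darolutamide and 2.13 with R1881 alone, and PCAT1 had 3.38 with darolutamide and 2.33 with R1881 alone. The order of DRAIC and PCAT1 therefore differed between the groups, and their place rests on the transcript assumed: over the union of all annotated exons DRAIC had 0.255 CPM per kb with darolutamide and 0.149 with R1881 alone, and PCAT1 had 0.166 with darolutamide and 0.114 with R1881 alone.

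All 4 calls held without darolutamide replicate 4, with log2 fold changes of 0.71 for DRAIC, 0.45 for PCAT1, 0.44 for MALAT1 and 0.29 for NEAT1. Against R1881 libraries 71 to 75 alone the log2 fold changes were 0.79 for DRAIC, 0.40 for PCAT1, 0.46 for MALAT1 and 0.20 for NEAT1. Against libraries 51 to 55 alone they were 0.67 for DRAIC, 0.52 for PCAT1, 0.33 for MALAT1 and 0.34 for NEAT1, and all 8 values passed the limma test. Between the 2 sets, which had the same treatment by their labels, libraries 71 to 75 differed from libraries 51 to 55 by 0.14 for NEAT1, 0.11 for PCAT1, -0.12 for MALAT1 and -0.13 for DRAIC on the log2 scale. None of these 4 passed the limma test (adjusted p of 0.135, 0.634, 0.248 and 0.471), although 1, NEAT1, had an unadjusted limma p of 0.0167. The same test called 0.805% of all genes higher in libraries 71 to 75 and 2.29% lower, 3.1% in all.

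The ratio of NEAT1 to MALAT1 compares both nuclear RNAs within a library and does not depend on the scaling between libraries. It was 0.590, 0.773, 0.718, 0.781 and 0.769 in darolutamide replicates 1 to 5, and 0.705 to 0.919 in R1881 libraries. Replicate 1, the library with the most MALAT1, had the lowest ratio. The means were 0.726 ± 0.0800 with darolutamide and 0.790 ± 0.0842 with R1881 alone (n = 5 and 10), a difference of mean log2 ratio of -0.12 that did not pass a two-sided exact permutation test (p = 0.172; the smallest p that 3003 splits allow is 0.000333). The 2 sets of R1881 libraries did not overlap in this ratio, since libraries 71 to 75 lay at 0.801 to 0.919 and libraries 51 to 55 at 0.705 to 0.730. This was noticed after the values were seen and was not tested. Against libraries 71 to 75 alone the difference was -0.26 (exact permutation p = 0.00794). This is the smallest p that a two-sided test of 5 against 5 libraries allows, and any 2 such sets without overlap would reach it. Against libraries 51 to 55 alone the difference was 0.01 (exact permutation p = 0.968).

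**Figure D2:**
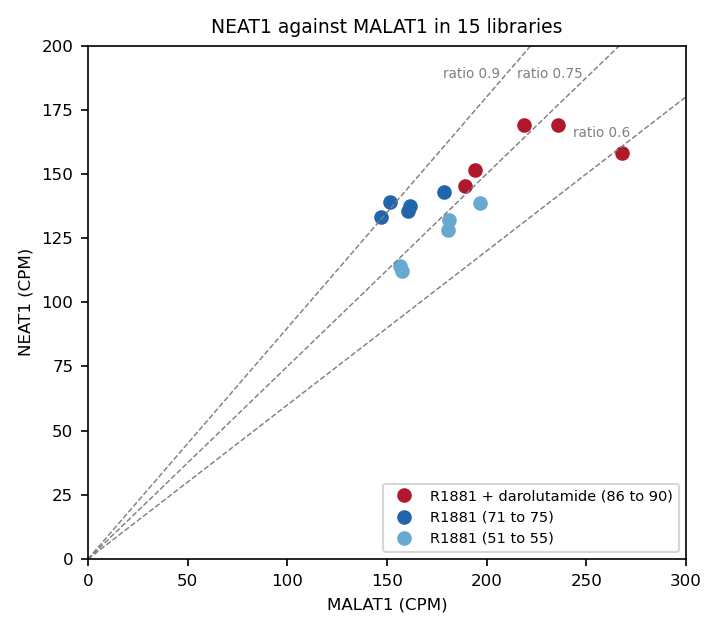
NEAT1 (y axis, CPM) against MALAT1 (x axis, CPM) in the 15 libraries, with dashed lines of equal ratio. All 5 darolutamide libraries lie above 145 CPM of NEAT1, and R1881 libraries 71 to 75 lie at a higher ratio (0.801 to 0.919) than libraries 51 to 55 (0.705 to 0.730).

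Other long noncoding RNAs known from prostate cancer went in both directions. Of 29 listed, 11 were in the table, of which 4 rose, 3 fell and 4 did not pass the limma test (median log2 fold change -0.07). LINC01138 rose most, with 9.30 ± 1.13 CPM in darolutamide libraries and 3.55 ± 0.492 CPM in R1881 libraries (log2 fold change 1.28). LINC00662 rose by 0.36 and PVT1, the neighbour of MYC, by 0.20. The 3 that fell were low throughout: LINC00844 had 1.51 ± 0.139 CPM with darolutamide and 5.16 ± 0.415 CPM with R1881 alone (log2 fold change -1.50), PRCAT47, now named ARLNC1, had 0.579 CPM with darolutamide and 2.36 CPM with R1881 alone (-1.40), and PCA3, the RNA measured in a urine test for prostate cancer, had 0.260 CPM with darolutamide and 1.20 CPM with R1881 alone (-1.16). At such levels the pseudocount shrinks the values, and edgeR on the recovered reads gave -2.19 for PCA3, -2.01 for PRCAT47 and -1.77 for LINC00844, the reverse order. SCHLAP1, an RNA of aggressive prostate cancer, had a log2 fold change of -0.15 (limma adjusted p = 0.0583), and was called lower in 6 of 27 alternatives: against R1881 libraries 51 to 55 alone (-0.24), without darolutamide replicate 3, R1881 replicate 2 or R1881 replicate 6 (-0.18, -0.17 and -0.18), with the GC correction (-0.16) and with a term for the sets of R1881 libraries (-0.15). PRNCR1 had a log2 fold change of -0.07 (limma adjusted p = 0.486).

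Other widely expressed long noncoding RNAs mostly did not pass the limma test. Of 15 listed, 11 were in the table: 2 rose, 1 fell and 8 did not pass (median log2 fold change -0.08). EPB41L4A-AS1 rose by 0.27 and KCNQ1OT1, the silencing RNA of an imprinted cluster, by 0.29, while LINC-PINT fell by 1.07 on the log2 scale. EPB41L4A-AS1 was not called against R1881 libraries 51 to 55 alone (0.16). KCNQ1OT1 was not called against libraries 71 to 75 alone (0.19) or with the replicate block, under which 1 of the 11 was called higher and 1 lower. Scaled by library totals, 4 were called higher and 1 lower. The abundant ones had small differences. LINC00657, now named NORAD, averaged 484 CPM with darolutamide and 504 CPM with R1881 alone, a log2 fold change of -0.06 that did not pass and turned to 0.01 when scaled by library totals. OIP5-AS1 averaged 187 CPM with darolutamide and 198 CPM with R1881 alone (-0.08, not past the test), and was called lower against R1881 libraries 51 to 55 alone (-0.13) and with the GC correction (-0.08). TUG1 averaged 296 CPM with darolutamide and 280 CPM with R1881 alone (0.08), and JPX 28.1 CPM with darolutamide and 25.9 CPM with R1881 alone (0.11). Neither passed, but without darolutamide replicate 4 both were called higher, at 0.13 for TUG1 and 0.18 for JPX, as they were when scaled by library totals (0.15 for TUG1 and 0.18 for JPX) and with the GC correction (0.08 for TUG1 and 0.11 for JPX). Darolutamide replicate 4 had 23.0 CPM of JPX, the lowest of all 15 libraries.

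**Figure D3:**
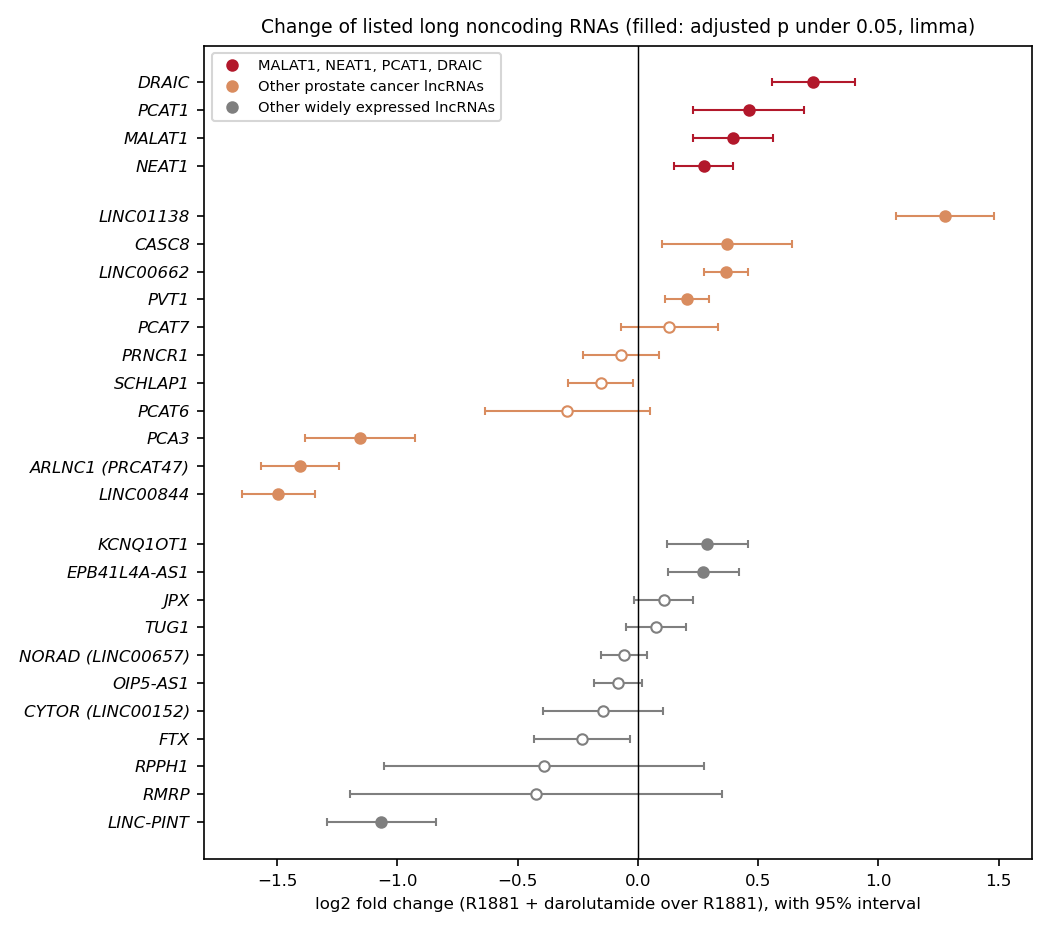
Log2 fold change of darolutamide over R1881 libraries (x axis) with its 95% interval for MALAT1, NEAT1, PCAT1 and DRAIC, for 11 other long noncoding RNAs of prostate cancer and for 11 widely expressed ones, each by name (current symbol first, the symbol in the table in brackets). Filled points passed the limma test: the first 4 lie between 0.27 and 0.73, while the others run from -1.50 for LINC00844 to 1.28 for LINC01138 on the log2(CPM + 0.5) scale.

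The paraspeckle proteins bind NEAT1. All 24 listed genes were in the table, of which 5 rose, 5 fell and 14 did not pass (median log2 fold change -0.05), shares close to the 22.8% higher and 23.7% lower of all genes. Scaled by library totals, 7 were called higher and 4 lower. TAF15 fell to 227 ± 3.56 CPM in darolutamide libraries, against 318 ± 11.6 CPM in R1881 libraries, and RBM12 fell by 0.41, CPSF7 by 0.32 and EWSR1 by 0.31 on the log2 scale. TAF15 and EWSR1 encode related RNA-binding proteins. Of the core proteins that NEAT1 paraspeckles need, NONO rose by 0.12, while SFPQ had a log2 fold change of 0.02 and PSPC1 one of -0.11, neither past the test. CPSF7 is a part of the cleavage factor that favours the short NEAT1 end; its partners CPSF6 and NUDT21 had log2 fold changes of -0.01 and 0.08 and did not pass.

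Among genes that process MALAT1 or hold nuclear speckles together, 15 of 16 were in the table. None rose, 7 fell and 8 did not pass the limma test (median log2 fold change -0.14). Of all genes, 22.8% were called higher and 23.7% lower. At an unadjusted p under 0.05 limma had 1 higher, METTL16, which binds the MALAT1 triple helix (log2 fold change 0.09). edgeR called 0 higher and DESeq2 1. Scaled by library totals, 1 was called higher and only 3 lower, and with the replicate block 0 higher and 3 lower. POP1, a subunit of RNase P, fell to 20.4 ± 1.35 CPM in darolutamide libraries, against 31.0 ± 2.29 CPM in R1881 libraries (log2 fold change -0.59). The RNase P subunits RPP40 and POP4 fell by 0.22 and 0.15, the speckle protein SRRM1 by 0.20 and the speckle scaffold SON by 0.14 on the log2 scale. POP4 was not called against R1881 libraries 51 to 55 alone (-0.13), when scaled by library totals (-0.08) or with the replicate block (-0.12). RPP40 was not called against libraries 71 to 75 alone (-0.16), without darolutamide replicates 3 and 4 (-0.16) or with the replicate block (-0.21).

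The genes known to act on DRAIC, or on which it acts, also split. Of 15 listed, 5 rose, 5 fell and 5 did not pass (median log2 fold change -0.10), and scaled by library totals 6 were called higher and 3 lower. FOXA1 stood at 384 ± 11.4 CPM with darolutamide and 378 ± 15.1 CPM with R1881 alone (log2 fold change 0.02, not past the test). TNFAIP3, which encodes the NF-κB inhibitor A20, had 2.07, 1.74, 2.20, 1.56 and 1.72 CPM in darolutamide replicates 1 to 5, against 12 CPM at the lowest, 14.2 at the median and 17.2 at the highest in R1881 libraries, without overlap. It fell by 2.64 on the log2 scale (limma adjusted p = 1.49e-13). NFKBIA, which encodes the inhibitor IκBα, fell by 0.89. NFKB1, a subunit of NF-κB, rose by 0.93, with 85.4 ± 4.14 CPM in darolutamide libraries and 44.5 ± 2.67 CPM in R1881 libraries, and RELB rose by 0.49 at a level under 1 CPM in both groups. Of 2 further NF-κB subunit genes, NFKB2 fell by 0.33 and REL rose by 0.25 on the log2 scale. The genes of the IKK kinases went in opposite directions, CHUK falling by 0.19 and IKBKB rising by 0.15. RELA and IKBKG, which encode an NF-κB subunit and the regulatory subunit of IKK, had log2 fold changes of -0.02 and -0.19 and did not pass.

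**Figure D4:**
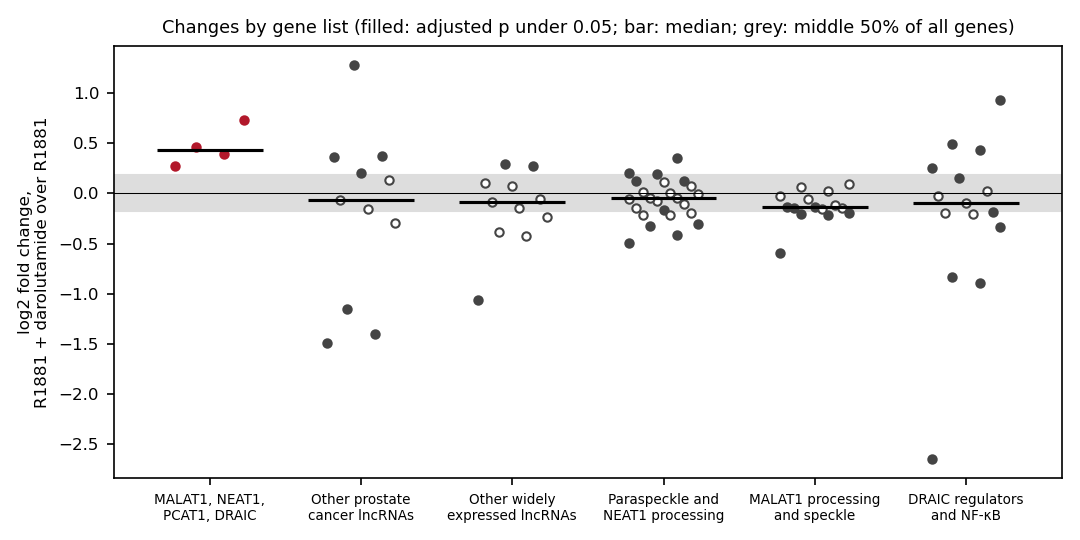
Log2 fold change of darolutamide over R1881 libraries (y axis) for each gene (point) of 6 lists, with the list median as a bar and the quartiles of all genes (-0.18 to 0.19) in grey. Filled points passed the limma test: all 4 RNAs of the first list lie above the grey band, and the medians of the other lists lie between -0.14 and -0.05.

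Leaving out darolutamide replicate 4 moved these counts. It gave 3 higher and 4 lower among the prostate cancer RNAs, 4 higher and 1 lower among the widely expressed RNAs, 7 higher and 10 lower among paraspeckle genes, 1 higher and 9 lower among MALAT1 processing and speckle genes, and 5 higher and 7 lower among the DRAIC and NF-κB genes. MALAT1, NEAT1, PCAT1 and DRAIC all remained higher.

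The genes next to these RNAs, as RefSeq orders the genes of the table, differed among themselves. NEAT1 and MALAT1 are neighbours, 52197 bases apart. On the far side of NEAT1, FRMD8 had 19.1 ± 6.09 CPM in darolutamide libraries and 19.6 ± 2.38 CPM in R1881 libraries (log2 fold change -0.08, limma adjusted p = 0.687), and 0.05 without darolutamide replicate 3. TLE3, a corepressor gene 476349 bases beyond DRAIC, had 110, 105, 100, 153 and 108 CPM in darolutamide replicates 1 to 5 and 56.8 to 73.8 CPM in R1881 libraries. The groups did not overlap, and TLE3 rose by 0.86 on the log2 scale (limma adjusted p = 1.2e-07). RPLP1, a ribosomal protein gene 105514 bases before DRAIC, had a log2 fold change of 0.15 and did not pass, and one of -0.10 without darolutamide replicate 4. The neighbours of PCAT1, KNOP1P5 and PRNCR1, had log2 fold changes of 0.09 and -0.07 and did not pass. CASC8, which the GENCODE span of PCAT1 overlaps, was called higher (log2 fold change 0.37, limma adjusted p = 0.0242). It had 1.09 CPM with darolutamide and 0.747 CPM with R1881 alone, from 6 to 28 reads per library. The neighbours of PCGEM1, TMEFF2 and SLC39A10, fell by 0.40 and 0.94 on the log2 scale.

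RefSeq promoters (GRCh38.p14, 250 bases before to 50 after the start, plus strand) are shown for DRAIC, which changed most, and for one of the 2 starts listed for MALAT1, the only one of these windows with a match to the motifs searched. The motifs were the androgen receptor half-site AGAACA (14.785% of 35116 promoters have it on either strand), the full element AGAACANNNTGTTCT, which contains it (0.003%), and the forkhead motif GTAAACA (3.423%). Capitals mark a match. The windows are chr15:69561470-69561769 for DRAIC and chr11:65498795-65499094 for MALAT1.
DRAIC promoter: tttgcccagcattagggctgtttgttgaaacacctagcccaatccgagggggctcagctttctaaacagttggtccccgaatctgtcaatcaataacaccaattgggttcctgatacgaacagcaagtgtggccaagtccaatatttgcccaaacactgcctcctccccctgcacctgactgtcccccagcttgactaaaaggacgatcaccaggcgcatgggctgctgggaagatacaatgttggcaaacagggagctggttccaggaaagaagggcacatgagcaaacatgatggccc
MALAT1 promoter: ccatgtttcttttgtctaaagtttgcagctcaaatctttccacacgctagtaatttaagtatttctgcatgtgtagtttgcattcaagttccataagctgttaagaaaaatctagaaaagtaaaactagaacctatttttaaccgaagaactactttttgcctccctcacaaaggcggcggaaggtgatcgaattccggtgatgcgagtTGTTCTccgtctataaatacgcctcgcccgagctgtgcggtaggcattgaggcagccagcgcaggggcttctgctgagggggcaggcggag
The MALAT1 window held 1 half-site, written TGTTCT on the plus strand, and the DRAIC window held none of the 3 motifs. A match describes the letters and is not evidence of binding, and the absence of a match says only that these letters are not in this window. GC content was 46.0% in the MALAT1 window and 52.0% in the DRAIC window.

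The genes whose centred profile over the 15 libraries was most like that of DRAIC were SLC38A9, FAM175A and LRIG3, with root mean square differences of 0.112, 0.112 and 0.117 on the log2(CPM + 0.5) scale. For PCAT1 they were OTUB2, HIST1H3H and RP11-5C23.1 (0.129, 0.138 and 0.146), for MALAT1 C11orf74, MTERF2 and ZNF493 (0.0911, 0.0965 and 0.0986), and for NEAT1 TMEM99, ACTR3B and TBPL1 (0.0688, 0.0689 and 0.0697). All profiles share the same libraries and treatment, and no test was made of the likeness.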

How the data were processed

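RNA of LNCaP cells was selected with poly-T beads and sequenced from 15 libraries as 50-base single-end reads (TruSeq Stranded mRNA). The authors used bcl2fastq 2.17, mapped the reads with STAR to GRCh38, obtained counts for each gene from featureCounts (Subread) and deposited them as CPM. Versions of STAR and featureCounts, the annotation and the gene filter are not given in the sources used here. The deposited values are a scaled signal: whole reads divided by 1 factor per library, with column sums of 1005403 to 1078567. Whole reads were recovered for 100% of values (tolerance 0.001 reads).

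The main test was limma 3.58.1 (trend) in R 4.3.3 on log2(CPM + 0.5) over all 17272 genes without a filter, two-sided, with Benjamini-Hochberg adjustment. It was checked on simulated data. Intervals are 95%. Counting spreads come from recovered reads and cover counting error only. Alternatives were pseudocounts of 0.1 and 1, a minimum mean of 1 CPM, edgeR 4.0.16 (TMM) and DESeq2 1.42.0 on recovered reads, scaling by library totals, a replicate block, either set of R1881 libraries, each library left out, darolutamide replicates 3 and 4 left out, a GC correction (spline, 5 df) and, added after the data were seen, a term for the sets of R1881 libraries.

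The RNAs and the 9 gene lists were chosen with earlier results of these data known. Named are these RNAs, up to 4 called genes of smallest p per list, listed long noncoding RNAs averaging at least 10 CPM, the nearest gene on either side, and the 3 genes most like each RNA. RELB, RELA, REL, NFKB2, IKBKG, CHUK, IKBKB, FOXA1, NONO, SFPQ, PSPC1, CPSF6, NUDT21, SON, METTL16, HOXB13 and CASC8 were named after their values were seen. Of the list genes, 3 were matched by an older symbol. No 2 libraries agreed within sampling noise (chi-square per degree of freedom at least 1.63). DRAIC to PCGEM1 was not computed, since PCGEM1 was not analysed here. Some genes that the rule names are not reported here.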

Additional observations from a re-analysis of the deposited data

Results flagged for a closer look

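In 7 of 120 groups of libraries of the named genes, 1 library lay far from the others by the gap to its nearest neighbour relative to the range of its group. Chance gives about 1 such group in 20. None of them was a group of MALAT1, NEAT1, PCAT1 or DRAIC. Darolutamide replicate 4 accounted for 5: it had the highest COL1A1 (20.6 CPM, next 8.86), the highest RPLP1 (1021 CPM, next 516) and the highest TLE3 (153 CPM, next 110) of its group, and the lowest FKBP5 (133 CPM, next 154) and the lowest JPX (23.0 CPM, next 28.7). R1881 replicate 10 had the highest LINC00662 (24.7 CPM, next 23.2), and R1881 replicate 3 the highest RP11-5C23.1 (3.47 CPM, next 2.84).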

How the results depend on the processing

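MALAT1, NEAT1, PCAT1 and DRAIC kept their direction and their call under all 27 alternatives. The log2 fold change ranged from 0.67 to 0.79 for DRAIC (adjusted p up to 0.000559), 0.39 to 0.54 for PCAT1 (up to 0.0222), 0.32 to 0.47 for MALAT1 (up to 0.0156) and 0.20 to 0.34 for NEAT1 (up to 0.00933). The number of genes called higher ranged from 3077 to 5326 and lower from 3030 to 4781, and with each library left out from 3495 to 4096 and from 3723 to 4781. Scaled by library totals, 63.7% of calls were higher, against 49.1% in the values reported, and the median of all genes moved to 0.07, while DRAIC stood at 0.79, PCAT1 at 0.52, MALAT1 at 0.47 and NEAT1 at 0.34.

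The difference of the NEAT1 to MALAT1 log2 ratio changed sign against R1881 libraries 51 to 55 alone (0.0113). It passed the exact permutation test against libraries 71 to 75 alone (-0.26, p = 0.00794, the smallest p that test allows). With each library left out it ranged from -0.15 to -0.05. Of 1477 values of 55 other named genes, 1429 kept direction and call, 30 lost the call, 15 gained it and 3 changed sign: LINC00657 (0.0142, scaled by library totals), FRMD8 (-0.23 to 0.0536 with each library left out, the highest without darolutamide replicate 3) and RPLP1 (-0.0959 without darolutamide replicate 4). The causes were not tested.

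Libraries of the same replicate number did not deviate together (correlations -0.139 to 0.335, 0 of 5 darolutamide libraries closest to their own number), so the numbers were not taken as pairs. With the replicate number as a block, 6242 genes were called against 8044, with DRAIC at 0.74, PCAT1 at 0.47, MALAT1 at 0.45 and NEAT1 at 0.30, all past the test. Depth limits PCAT1 most, at 25 to 81 reads per library.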
